A study of Mus musculus with 6 samples.

Results

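The 10 circadian clock genes *Arntl*, *Clock*, *Per1*, *Per2*, *Per3*, *Cry1*, *Cry2*, *Nr1d1*, *Nr1d2* and *Dbp* were examined in mouse pancreatic beta-cells by RNA sequencing. They were taken by gene symbol, and all 10 were found among the 13535 genes of the table. Beta-cells were sorted by flow cytometry after 5 days of reaggregation, either from pseudo-islets, in which they were cultured with the other endocrine cell types, or from pseudo-beta, in which they were cultured alone. There were 3 libraries of each culture, 1 from each of 3 experiments that the labels number 35, 36 and 37. All mice were wild type, and by the study's methods they were C57BL/6JRj males of 12 weeks kept in a light/dark cycle. Islets were handpicked and kept overnight before the first sort, both cultures were grown in the same serum-containing medium at the same temperature, and each library was made from 5 ng of total RNA. The hour of the day at which cells were collected, whether the clocks of the cells were synchronized, and how many mice were pooled in an experiment are not given in the sources used here. Each experiment gave a single time point, so a level here is neither a phase nor an amplitude.

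The molecular clock is a feedback loop of transcription. *Arntl* (also called *Bmal1*) and *Clock* encode partner activators that bind E-box sequences and switch on the *Per* and *Cry* genes, whose proteins return to the nucleus and inhibit them. *Nr1d1* and *Nr1d2* encode the nuclear receptors REV-ERB alpha and beta, which repress *Arntl*, while *Dbp* encodes a D-box-binding activator that is itself a direct E-box target and an output of the loop. Beta-cells carry this clock, and it takes part in the daily rhythm of insulin secretion.

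Promoters of the clock genes carry the elements through which the arms act on each other, and those with E-boxes or D-boxes are printed here because the values of these genes are described below. RefSeq promoters on GRCm38.p6, each running from 250 bases before to 50 after a start site, were matched for 9 of the 10 genes. The motifs were searched on both strands. They were the E-box CACGTG, the D-box as TTATGTAA or TTACGTAA, the orphan receptor half-site AGGTCA and the cAMP response element TGACGTCA. Capitals mark a D-box, an E-box or the half-site, the last read on the other strand as TGACCT in *Per1*. The coordinates are chr4:151044616-151044915 on the minus strand for *Per3*, chr10:85185005-85185304 on the minus strand for *Cry1* and chr11:69098699-69098998 on the plus strand for *Per1*, and each sequence reads 5′ to 3′.
Per3: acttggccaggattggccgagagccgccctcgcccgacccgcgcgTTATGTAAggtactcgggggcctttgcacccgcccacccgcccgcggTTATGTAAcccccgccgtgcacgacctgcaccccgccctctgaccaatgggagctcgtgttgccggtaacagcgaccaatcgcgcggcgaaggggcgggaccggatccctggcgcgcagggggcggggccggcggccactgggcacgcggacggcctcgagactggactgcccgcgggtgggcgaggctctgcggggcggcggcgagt
Cry1: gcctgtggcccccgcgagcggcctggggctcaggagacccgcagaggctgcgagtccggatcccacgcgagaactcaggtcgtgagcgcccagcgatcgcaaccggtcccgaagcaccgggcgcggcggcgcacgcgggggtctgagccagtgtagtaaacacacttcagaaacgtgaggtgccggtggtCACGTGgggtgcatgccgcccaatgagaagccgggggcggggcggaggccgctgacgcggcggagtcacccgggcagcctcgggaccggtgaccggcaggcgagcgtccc
Per1: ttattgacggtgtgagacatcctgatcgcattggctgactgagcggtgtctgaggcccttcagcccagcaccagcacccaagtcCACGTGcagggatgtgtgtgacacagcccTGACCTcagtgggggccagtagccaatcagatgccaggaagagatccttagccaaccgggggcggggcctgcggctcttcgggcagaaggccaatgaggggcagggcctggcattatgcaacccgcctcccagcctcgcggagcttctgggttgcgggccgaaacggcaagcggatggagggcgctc
The *Per3* promoter held 2 D-boxes, which began 205 and 158 bases before the start site. In *Cry1* an E-box began 60 bases before the start, and in the first of the *Per1* promoters one began 166 bases before it, with the half-site at 137. Of all 32851 promoters, 7.15% held the E-box, 1.06% a D-box, 16.3% the half-site and 1.79% the cAMP response element, which no promoter of the 9 genes held. The half-site also stood in 1 promoter each of *Nr1d2*, *Clock* and *Arntl*. The promoters matched for *Dbp*, *Nr1d1* and *Cry2* held none of these letters in this window.

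The deposited values are normalized counts, with sums of 17994346 to 19635287 per library, and the number of reads behind them is not known. All 10 beta-cell markers searched were present, with summed levels of 7220070 to 8337440 normalized counts in pseudo-islets and 6961550 to 7704910 in pseudo-beta. The alpha-cell hormone *Gcg* was at 1763, 941 and 2094 in pseudo-islets 35, 36 and 37 and at 36.1, 14.1 and 0 in pseudo-beta, and the delta-cell hormone *Sst* was at 146 to 210.2 and 0 to 4.74. Over the alpha-cell list, with 5 of 8 genes in the table, sums were 7567 to 11521 in pseudo-islets and 5026 to 6191 in pseudo-beta, and over the delta-cell list, with 3 of 6, they were 537 to 732 and 355 to 479. *Gcg* and *Sst* were the only genes of these lists at 0 in any library. The sum of the PP-cell hormones *Ppy* and *Pyy* ran from 658 to 5500 in pseudo-islets and from 328 to 2482 in pseudo-beta. Within each experiment both were higher in pseudo-islets, and with the experiment as a block both passed the culture test (limma adjusted p = 0.00267 and 0.0259), which neither did without it (0.99 and 0.983). None of the acinar or stromal markers was in the table, and 1 endothelial and 1 immune marker were. Markers of alpha-, delta- and PP-cells thus moved with the culture, and their part in the clock values was not tested. In bulk RNA, fewer cells of a type and less RNA per cell cannot be told apart.

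Per kilobase of exon sequence, the order of mean levels over the 6 libraries was *Dbp*, *Nr1d2*, *Nr1d1*, *Cry1*, *Cry2*, *Clock*, *Per3*, *Arntl*, *Per2* and *Per1*. The output gene and the REV-ERB genes stood at the top, with *Dbp* at 179 (lowest library 116, highest 236), *Nr1d2* at 168 (138 to 201) and *Nr1d1* at 146 (114 to 172) normalized counts per kilobase. *Cry1* (80.6, range 37.7 to 115), *Cry2* (67.5, 41.9 to 112), *Clock* (63.3, 55.5 to 72.8) and *Per3* (52.6, 32.5 to 71.3) came next. *Arntl* (28.1, 20.3 to 41.9), *Per2* (25.8, 19.7 to 32.7) and *Per1* (12, 5.95 to 17.01) were lowest. Neighbours in this order overlapped in range over the 6 libraries, except *Per1*, whose highest library was below the lowest of *Per2*. The one other near gap was *Nr1d1* against *Cry1*, whose ranges met only between 114 and 115.

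**Figure D1:**
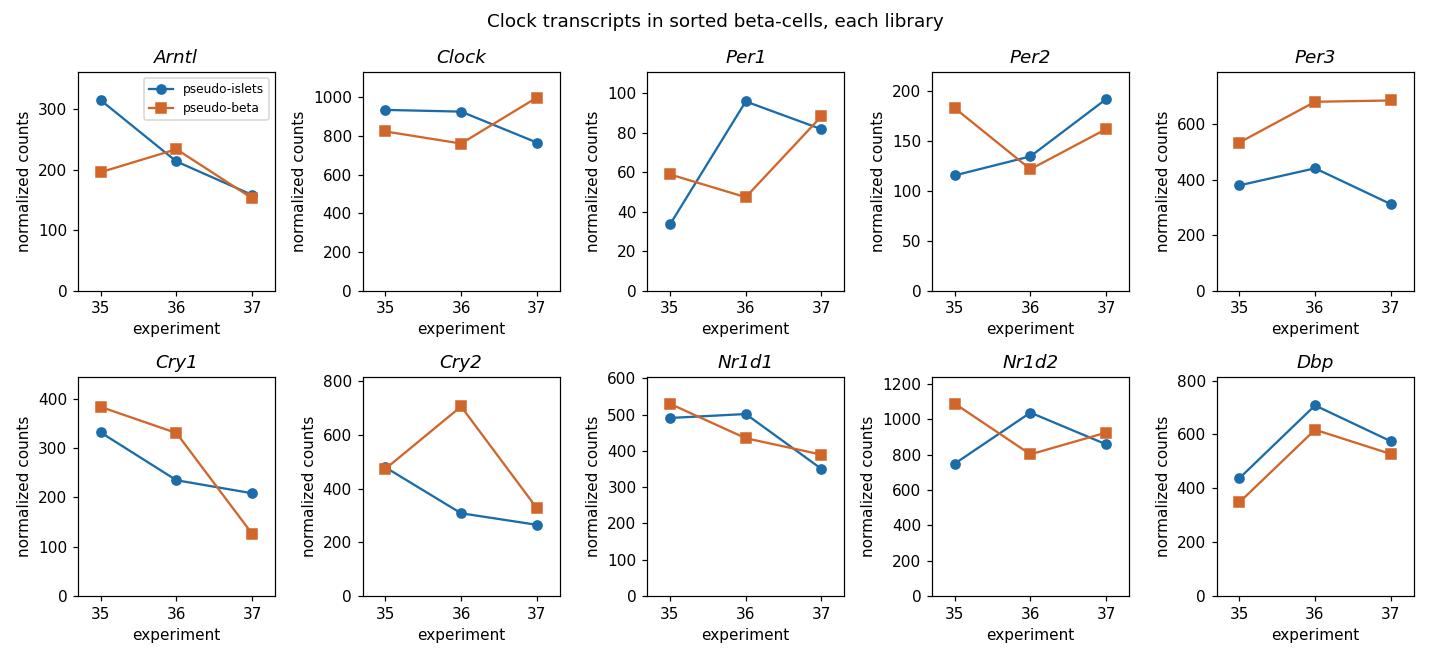
Normalized counts of each clock gene (vertical axis, from 0) in the 3 experiments (horizontal axis), with circles for beta-cells from pseudo-islets and squares for pseudo-beta; each point is 1 library. The *Per3* lines stay apart, at 312 to 441 against 534 to 685, the *Dbp* lines run in parallel, and the lines of the other 8 genes cross.

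The first question was whether the clock genes differed between beta-cells grown with the other endocrine cells and beta-cells grown alone. With limma over all genes, 0 of the 10 clock genes passed an adjusted p of 0.05, where 0.0591% of all genes did, and 1 of the 10, *Per3*, had an unadjusted p under 0.05, against 5.4% of all genes. When the experiment was a block, 0 of the 10 passed against 0.539% of all genes, and 2 of the 10, *Per3* and *Cry2*, were below an unadjusted 0.05, against 11.9% of all genes. By sign, 5 genes were higher in pseudo-islets and 5 lower, and the median log2 difference was -0.01, against 0.01 over all genes. The small differences of *Clock*, *Per1* and *Cry1* turned sign when the libraries were scaled without the 10 most abundant genes, and that of *Clock* also with quantile normalization. Log2 differences here are pseudo-islets minus pseudo-beta on the scale of log2(normalized count + 1).

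*Per3*, a period gene that is not needed for the core loop, was the member with the widest difference between cultures. The gene lies at chr4:151003652-151044665 on the minus strand of GRCm38. In experiments 35, 36 and 37 it stood at 379, 441 and 312 normalized counts when beta-cells came from pseudo-islets, against 534, 680.4 and 685 in pseudo-beta. Every pseudo-beta library was above every pseudo-islets library, which was true of 5.13% of all genes. A gap between the cultures in either direction was seen in 10.8% of genes, and *Per3* was the one clock gene with a gap. Means were 377 ± 64.5 and 633 ± 86.1 (SD, n = 3 each), a 1.68-fold higher level in pseudo-beta and a log2 difference of -0.75 (SE 0.20, 95% interval -1.19 to -0.31). The limma adjusted p was 0.588, and 0.0794 with the experiment as a block, so the difference did not pass the threshold in either fit. The exact permutation test on 3 against 3 libraries can reach no lower than 0.1, two-sided, which is the value it gave. Within experiments 35, 36 and 37 the log2 differences of *Per3* were -0.49, -0.63 and -1.13. *Camta1* overlaps *Per3* on the same strand but shares no exonic base with it, and its own log2 difference was 0.11.

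The other period genes did not separate by culture. *Per1*, an immediate responder to light and cAMP signals in the clock, was at 33.5, 95.8 and 81.7 normalized counts in pseudo-islets and at 58.8, 47.3 and 88.3 in pseudo-beta. The cultures overlapped throughout, and *Per1* was higher in pseudo-beta in experiments 35 and 37 and higher in pseudo-islets in experiment 36. The log2 difference was 0.03 with a wide 95% interval of -0.97 to 1.03. *Per2*, a core inhibitor of the activators, was at 115, 134 and 192 in pseudo-islets and at 183, 121 and 162 in pseudo-beta. Its log2 difference was -0.09 (-0.73 to 0.54), and it was lower in pseudo-islets in experiment 35 and higher in the other 2.

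The cryptochromes are the main repressors of the loop. *Cry1* lies at chr10:85131700-85185064 and *Cry2* at chr2:92403646-92434043, both on the minus strand of GRCm38. *Cry1* was at 332, 235 and 208 in pseudo-islets and at 384, 331 and 126 in pseudo-beta. The cultures overlapped, and the library of pseudo-beta in experiment 37 was the lowest of the 6. The log2 difference of *Cry1* was 0.01 (-0.86 to 0.87). *Cry2* was at 479, 308 and 265 in pseudo-islets and at 474, 706 and 327 in pseudo-beta. The level in pseudo-beta 36 stood above the other 5 libraries, and experiments 35 and 37 differed less. The mean was 1.41-fold higher in pseudo-beta, with a log2 difference of -0.49 (SE 0.31, -1.17 to 0.19). The limma adjusted p for *Cry2* was 0.976, and 0.404 with the experiment as a block. *Cry2* shares 295 exonic bases with *D930015M05Rik* on the opposite strand, and whether reads were counted by strand is not given in the sources used here.

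Neither activator passed the culture test, and the interval of *Arntl* was too wide to exclude a 1.5-fold change. *Arntl*, the activator whose transcript is rhythmic in many tissues, was at 315, 214 and 158 normalized counts in pseudo-islets and at 196, 234 and 153 in pseudo-beta. The library of pseudo-islets in experiment 35 was the highest, and the log2 difference was 0.20 (-0.45 to 0.85). *Arntl* shares 33 exonic bases with *Gm45355* on the opposite strand. *Clock*, its partner, which varies little over the day in many tissues, was at 935, 927 and 767 in pseudo-islets and at 824, 761 and 999 in pseudo-beta. Its log2 difference was 0.03 (-0.35 to 0.40), an interval inside a 1.5-fold change in either direction.

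The REV-ERB genes and *Dbp* are the arms with the largest daily swings in many tissues. *Nr1d1* was at 491, 502 and 350.3 in pseudo-islets and at 529.8, 435 and 389.6 in pseudo-beta. The cultures overlapped, and the log2 difference was -0.02 (-0.49 to 0.45). *Nr1d2* was at 749, 1038 and 858 in pseudo-islets and at 1089, 802 and 925 in pseudo-beta, with a log2 difference of -0.09 (-0.50 to 0.31). The 95% intervals of *Nr1d1* and *Nr1d2*, with that of *Clock*, excluded a 1.5-fold change without the block, as did those of 3689 of all 13535 genes. With the block the intervals of *Cry1* and *Dbp* did so too, making 5 of the 10, against 5687 of all 13535 genes. *Dbp* was at 437, 708 and 575 in pseudo-islets and at 347, 617 and 527 in pseudo-beta. In each experiment it was higher in pseudo-islets, by log2 differences of 0.33, 0.20 and 0.12, and the fitted difference was 0.22 (SE 0.25, 95% interval -0.35 to 0.78). The limma adjusted p was 0.998, and 0.598 with the block. Of the 10 genes, *Per3* and *Dbp* had 1 sign in all 3 experiments, against 33.1% of all genes. *Nr1d1* shares 263 exonic bases with *Thra*, and *Dbp* 539 with *Sphk2*, both on the opposite strand.

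**Figure D2:**
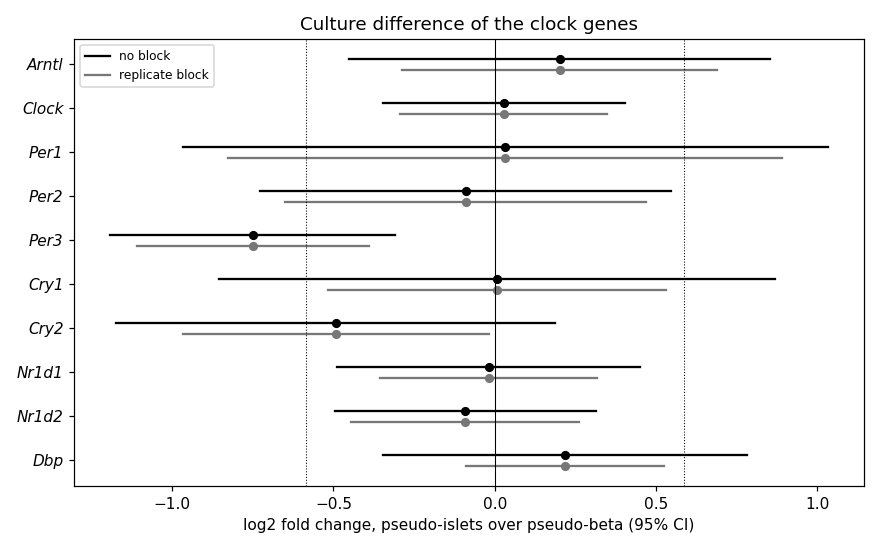
Fitted log2 fold change of each clock gene, pseudo-islets over pseudo-beta (points), with 95% confidence intervals from limma without a block (black) and with the experiment as a block (grey); dotted lines mark a 1.5-fold change. The interval of *Per3* lies below 0 in both fits, that of *Cry2* below 0 with the block only, and the other 8 cross 0 in both.

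The second question was how far the experiments differed from each other, since every experiment held 1 library of each culture. In a limma F test of the experiment with the culture in the model, 1 of the 10 clock genes, *Dbp*, passed an adjusted p of 0.05, against 6.32% of all genes. At an unadjusted p under 0.05 there were 3 of 10, *Cry1*, *Cry2* and *Dbp*, against 23.5% of all genes. The median span between the highest and the lowest experiment was 0.57 in log2 for the 10 genes and 0.47 over all genes. On simulated data with the real spread of the genes, this F test called unchanged genes more often than its threshold allows, so its calls near the threshold are the least secure.

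*Dbp* was lowest in experiment 35, highest in 36 and between them in 37, in both cultures. The gene lies at chr7:45705088-45710203 on the plus strand of GRCm38. Its level in experiment 36 was above that in 35 by a log2 difference of 0.76 (SE 0.17), or 1.69-fold, and experiment 37 was 0.50 above 35. The limma adjusted p was 0.0494. The call was lost when any 1 of the 6 libraries was left out, with adjusted p of 0.0676 to 0.219, and with no trend in the prior variance, at 0.332. *Dbp* and *Cry1* kept 1 order of the 3 experiments in both cultures, as 28.7% of all genes did.

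*Cry1* ran the other way, from highest in experiment 35 to lowest in 37. Experiment 37 was 1.13 below 35 in log2 (SE 0.29) and 0.78 below 36, with a limma adjusted p of 0.0772. By culture, the difference of 37 from 35 was -0.67 in pseudo-islets and -1.60 in pseudo-beta. *Cry2* was 0.69 below 35 in experiment 37 (SE 0.26), with a limma adjusted p of 0.187. *Arntl* was 0.67 below 35 in 37 (SE 0.27, limma adjusted p = 0.257) and *Nr1d1* 0.46 below (SE 0.19, limma adjusted p = 0.265). Experiment 37 was thus lowest for 5 of the 10 genes, as it was for 5266 of all 13535. They were *Arntl*, *Cry1*, *Cry2*, *Nr1d1* and, within a span of 0.03 only, *Nr1d2*. The fitted direction was the opposite for *Per1*, at 0.92 above 35 (SE 0.48), and *Per2*, at 0.28 above (SE 0.31). *Per1* was higher in 37 than in 35 in both cultures, but its experiment span was 0.33 without pseudo-islets 35. The cultures did not share the direction for *Per2*, whose difference of 37 from 35 was 0.73 in pseudo-islets and -0.18 in pseudo-beta. The spans of *Clock* and *Nr1d2* were 0.06 and 0.03, and that of *Per3* was 0.28. Apart from *Dbp*, none of these differences passed the test.

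Set side by side, differences between experiments in the same culture were larger than differences within an experiment for 6 of the 10 genes by their medians, where this held for 59% of all genes. The medians over the clock genes were 0.29 within and 0.48 between, and those over all genes 0.28 and 0.36. Among the period and cryptochrome genes, *Per3* had a median of 0.63 within experiments against 0.32 between. *Per1* had 0.79 within and 0.73 between, and *Per2* 0.24 and 0.46. *Cry1* had 0.49 and 0.58, and *Cry2* 0.30 and 0.61. The activator *Arntl* had 0.13 within and 0.49 between, while *Clock* had 0.28 in both. *Nr1d1* had 0.15 within and 0.36 between, *Nr1d2* 0.37 and 0.25, and *Dbp* 0.20 and 0.50. The within-experiment medians rest on 3 differences and the others on 6 that share libraries, so they are a description.

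**Figure D3:**
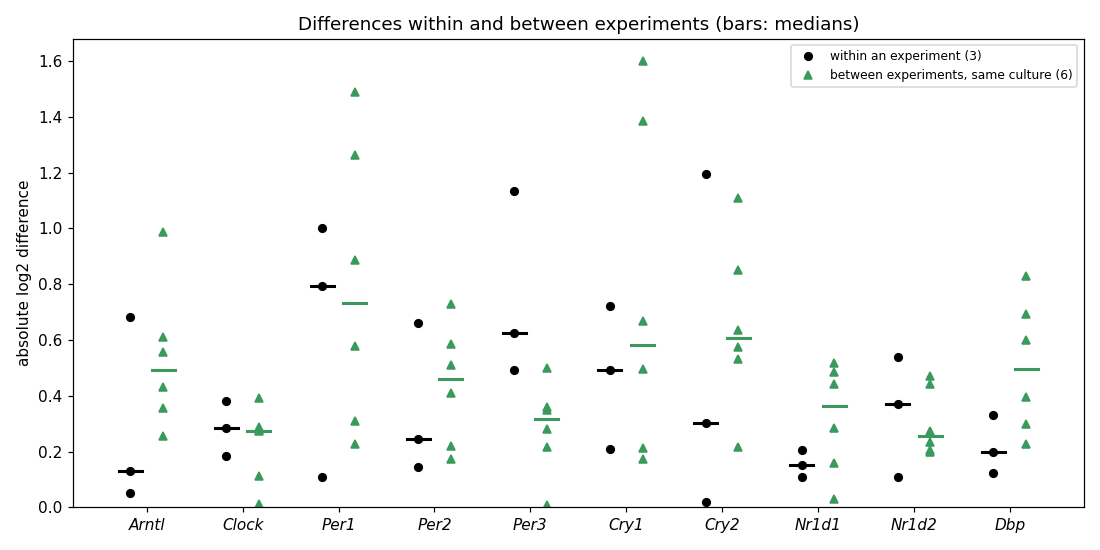
Absolute log2 differences of each clock gene within an experiment (circles, 3 per gene, pseudo-islets against pseudo-beta) and between experiments in the same culture (triangles, 6 per gene), with bars at the medians. *Per3* has its circles high at 0.49 to 1.13, *Cry1* the highest triangle of the 10 genes, and *Dbp* and *Nr1d1* their circles below the median of their triangles.

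The same contrast appeared in the shares of the sum of squares. The culture took 80.2% for *Per3* and 26.6% for *Cry2*, but 10.4% or less for the other 8. The experiment took 88.0% for *Dbp*, 85.5% for *Nr1d1*, 76.9% for *Cry1* and 67.2% for *Arntl*. For *Clock* the culture took 0.877% and the experiment 3.75%, and for *Nr1d2* 5.70% and 0.523%, so nearly all was left as residual. Medians over the 10 genes were 4.16% for culture, 48.3% for experiment and 26.7% for the rest, against 11.8%, 52.1% and 22.3% over all genes. The experiment has 2 degrees of freedom and the culture 1, so these shares favour the experiment by construction.

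A ratio of 2 transcripts within a library does not depend on the scaling between libraries. Relative to *Arntl*, *Dbp* stood at log2 ratios of 0.47, 1.72 and 1.85 in pseudo-islets 35, 36 and 37 and at 0.82, 1.40 and 1.78 in pseudo-beta. Both cultures had the lowest ratio in experiment 35 and the highest in 37. In both, *Dbp* itself was highest in 36 and *Arntl* was lowest in 37. All the ratios share *Arntl*, whose highest library was pseudo-islets 35. *Per3* relative to *Arntl* was 0.27, 1.04 and 0.97 in pseudo-islets, against 1.44, 1.54 and 2.16 in pseudo-beta, with the pseudo-beta library above its partner in each experiment. *Nr1d2* relative to *Arntl* was 1.25, 2.28 and 2.43 against 2.47, 1.77 and 2.59, and *Nr1d1* was 0.64, 1.23 and 1.14 against 1.43, 0.89 and 1.34. Their cultures crossed. *Per1* relative to *Arntl* was -3.19, -1.15 and -0.95 in pseudo-islets 35, 36 and 37, against -1.72, -2.28 and -0.78 in pseudo-beta. *Per2* was -1.44, -0.67 and 0.27 against -0.10, -0.94 and 0.08. For both genes the ratio was highest in experiment 37 in both cultures. It was lowest in experiment 35 in pseudo-islets and in 36 in pseudo-beta.

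**Figure D4:**
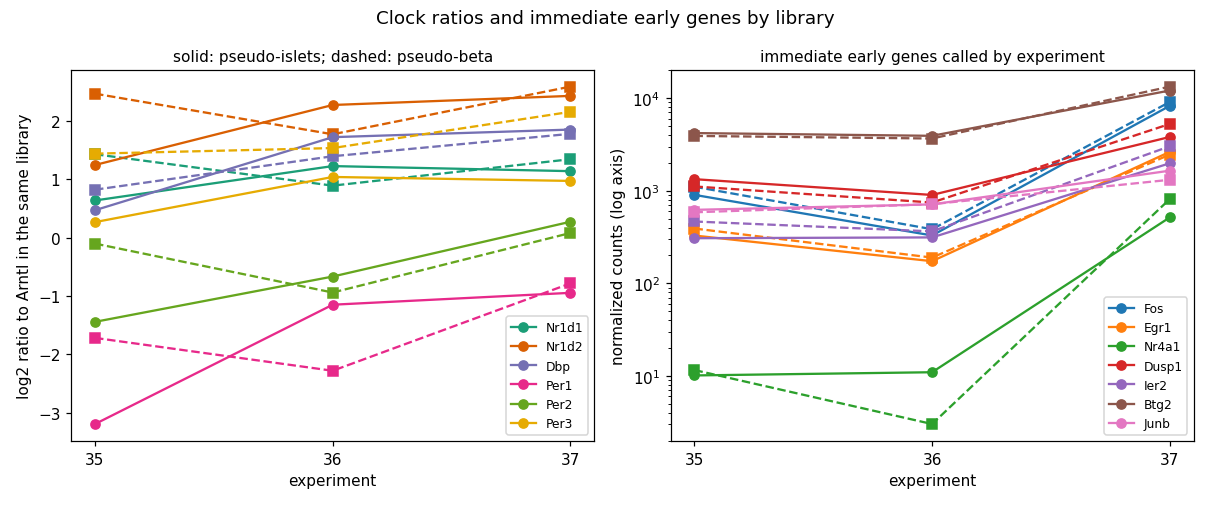
Left, log2 ratio of 6 clock genes to *Arntl* in the same library against the experiment; right, normalized counts of the 7 immediate early genes called by experiment, on a log axis. Circles and solid lines are pseudo-islets, squares and dashed lines pseudo-beta, and experiment 37 stands highest for all 7 immediate early genes.

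The experiments differed far more in immediate early genes, which answer stimulation and cAMP within minutes. Of 12 such genes listed, 9 were in the table, all 9 were highest in experiment 37, and 7 passed the experiment test (*Fos*, *Egr1*, *Nr4a1*, *Dusp1*, *Ier2*, *Btg2* and *Junb*). Over all genes, 5176 of 13535 were highest in experiment 37, and 6.32% passed the experiment test. *Fos* was at 329 to 1104 normalized counts in the 4 libraries of experiments 35 and 36 and at 8245 and 9085 in those of 37 (limma adjusted p = 2.88e-08). The median span of the 9 was 2.45 in log2, against 0.57 for the clock genes. Their part in the clock values of experiment 37 was not tested.

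Other genes of the clock were examined from a list of 34, of which 31 were in the table. *Npas2*, *Rorb* and *Timeless* were not analysed here. None of the 31 passed the culture test with or without the block in limma, and at an unadjusted p under 0.05 there were 1 without it (5.4% of all genes) and 2 with it (11.9%), *Bhlhe41* among the latter. By sign, 14 were higher and 17 lower in pseudo-islets, with a median log2 difference of -0.01. *Usp2*, a deubiquitinase, was at 150.3, 169 and 194 normalized counts in pseudo-islets, against 148, 132 and 98.3 in pseudo-beta. All 3 pseudo-islets libraries were above all 3 of pseudo-beta, as they were for the cofactor gene *Tipin*. A gap between the cultures in either direction was seen in 3 of the 31 genes, near the 10.8% of all genes. *Rora*, an orphan receptor that activates *Arntl*, was at 1047.5, 887 and 964 against 941, 871 and 872.

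Among the further clock outputs and repressors named here, *Nfil3* and *Hlf* differed more between experiments than within them, by their medians. *Tef*, *Bhlhe40*, *Bhlhe41* and *Ciart* differed more within an experiment. *Nfil3*, which encodes a repressor that competes with DBP for D-boxes, was at 220.2, 216 and 354 in pseudo-islets and at 155, 178 and 338 in pseudo-beta, highest in experiment 37 in both, with a span of 0.90 and a limma adjusted p of 0.0646. *Tef*, a relative of *Dbp*, was at 299.9, 276 and 326 against 251, 338 and 367, and *Hlf*, another, at 49.4, 14.0 and 29.7 against 35.5, 14.2 and 23.9. The E-box repressor *Bhlhe40* was at 137, 448 and 429 against 313, 214 and 475, and its paralog *Bhlhe41* at 839.6, 1038 and 692 against 1072, 1205 and 884. *Ciart*, a repressor of the activators, was at 413, 364 and 278 against 329.8, 231 and 401. In the experiment test 2 of the 31 genes passed, a share near the 6.32% of all genes. They were *Prkaa1*, a subunit of the AMP-activated kinase that marks CRY for degradation, and *Btrc*, a ubiquitin ligase for PER. *Prkaa1* was at 2069, 2339 and 1332 against 2377, 1878 and 1386, with a span of 0.71 (limma adjusted p = 0.022). *Btrc* was at 1783, 1757 and 1055 against 1666, 1831 and 1173, with a span of 0.69 (limma adjusted p = 0.0153). Both were among the 12 of the 31 genes that were lowest in experiment 37, as were 5266 of all 13535 genes. *Cry1* and *Cry2* were also lowest there, and a link to them was not tested.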

How the data were processed

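RNA from sorted beta-cells was sequenced in 6 libraries. The authors aligned reads to GRCm38 with STAR 2.7.6a and quantified genes with RSEM 1.3.1, and the submitters' processing notes also name R 3.6.3 and DESeq2 1.26.0. The deposited table holds signal as normalized counts. The annotation release, any filter on low genes and the strand setting of the counting are not given in the sources used here. Columns with the authors' own means, log2 fold changes with errors, a statistic (score) and p-value results were not used. At most 25.2% to 42.9% of low values lay within 0.02 of whole multiples of any 1 step, so whole reads were not recovered and depth is unknown.

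Values were analysed as log2(value + 1) with limma 3.58.1 in R 4.3.3, with a trend in the prior variance and Benjamini-Hochberg adjustment over all 13535 genes at 0.05. No gene was filtered out. The culture was tested without a block and, as an alternative, with the experiment as a block. The experiment was tested with an F test in a model with culture. Both were tested on simulated data. With the real spread of the genes, false calls exceeded the nominal share in most runs, and did so most for the F test. The residual is estimated from few degrees of freedom. Deviations from the group means correlated across genes at 0.119, 0.121 and 0.325 between libraries of one experiment and at -0.203 to 0.0922 otherwise. With a minimum of 0.1, the experiment numbers pair the libraries. A culture by experiment term has no residual degrees of freedom and was not tested. The experiments are independent by the study's methods.

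All 10 clock genes are named. Of the other clock genes, those called and a set fixed by name are given, and *Tipin* and the named clock-input and overlapping genes were chosen after their values were seen. One gene of the other clock genes is not reported here. The clock genes and the lists were chosen with earlier results of these data known. Exon lengths and overlaps came from GENCODE M21 on GRCm38 and promoters from RefSeq. Alternatives were the block, the pseudocount, a filter, other scalings, no trend and leaving out each library or experiment.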

Additional observations from a re-analysis of the deposited data

How the results depend on the processing

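The number of genes called for culture was 8, and it was 73 with the experiment as a replicate block, 1 with a pseudocount of 0.1, and 2 each when scaled without the 10 most abundant genes, with quantile normalization and with no trend. Leaving out a library or, with the block, an experiment gave 0 to 73 calls. It was 0 in limma without pseudo-islets 35, 36 or 37 or pseudo-beta 35, with 501 to 794 genes at an unadjusted p under 0.05. The block changed no call among the 10 clock genes. For the experiment, 855 genes were called, and 0 with no trend (1962 at an unadjusted p under 0.05 in limma). Leaving out a library gave 72, without pseudo-beta 37, to 1353, without pseudo-islets 36. The log2 differences of *Per3* (-0.88 to -0.56) and *Cry2* (-0.77 to -0.14) kept their sign in all 16 alternatives. The limma adjusted p of *Per3* ran from 0.0794 to 1. With scaling without the most abundant genes, signs turned for *Clock* (-0.0303), *Per1* (-0.0249) and *Cry1* (-0.0512), and with quantile normalization for *Clock* (-0.0023). Leaving out a library or experiment turned signs over ranges of -0.0565 to 0.44 for *Arntl*, -0.10 to 0.23 for *Clock*, -0.45 to 0.49 for *Per1*, -0.30 to 0.19 for *Per2*, -0.49 to 0.31 for *Cry1*, -0.13 to 0.15 for *Nr1d1*, -0.32 to 0.13 for *Nr1d2* and -0.021 to 0.40 for *Dbp*. The experiment call of *Dbp* was lost in 8 of 12 alternatives, a pseudocount of 0.1 among them (limma adjusted p = 0.0574). The experiment span of *Cry1* ran from 0.60, without pseudo-beta 37, to 1.67, without pseudo-islets 37. That of *Cry2* ran from 0.55, without pseudo-beta 37, to 1.19, without pseudo-islets 36. Whether these 2 genes passed depended on the library left out. The cause of these shifts was not tested. The unknown depth limits the low genes most, and *Per1* had the widest interval.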

Other observations

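Genes that respond to inputs of the clock, among them glucocorticoids, temperature and cAMP, were counted. Over all genes, 0.539% passed the culture test with the block, 0.0591% passed it without, and 6.32% passed the experiment test. Of 6 glucocorticoid response genes listed, 5 were in the table. With the experiment as a block, *Sgk1*, a kinase gene, was higher in pseudo-islets (limma adjusted p = 0.0118), by a log2 difference of 1.54. It did not pass without the block (limma adjusted p = 0.133). The study also reports lower *Sgk1* in beta-cells cultured without alpha- and delta-cells, by RNA sequencing and by qRT-PCR. By experiment *Fkbp5*, a chaperone gene of the glucocorticoid receptor, passed (limma adjusted p = 0.0414). Of 6 temperature response genes, 5 were in the table, none passed the culture test with or without the block, and *Rbm3*, a cold-inducible RNA-binding protein gene, passed by experiment (limma adjusted p = 0.0153). Of the 9 cAMP and immediate early genes in the table, *Crem*, which encodes cAMP-responsive repressors and activators, was higher in pseudo-islets with the block (limma adjusted p = 0.0319), by a log2 difference of 0.77, and did not pass without it (0.781).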
